A study of Homo sapiens and Mus musculus with 24 samples.

Results

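This account follows 44 lysosome and autophagy genes in MCF10A, a non-tumorigenic line of human breast epithelium. The genes were chosen by name: 3 transcription factors of the MiT/TFE family, 4 lysosomal membrane proteins, 12 hydrolases or other proteins of the lysosomal lumen, 5 subunits of the V-ATPase proton pump, 5 genes of ATG8-family proteins and their receptor, 10 genes of autophagosome formation, and 5 genes of the Rag GTPase and folliculin system. They are 44 of 56981 gene symbols in the deposited tables, and all 44 passed the filter on low counts, with the lowest count in any library being 433 for RRAGD. The rule itself uses gene names and no measured value, but the genes were chosen with earlier results of these data known. Their shares set beside those of all tested genes are therefore descriptions.

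RNA of 4 groups of 3 libraries was sequenced. The parental line received the solvent DMSO or alpelisib (BYL719), an inhibitor of PI3K alpha, at 1 uM, and the source labels of all 12 libraries give 4 h. The other line, called knock-in here, is heterozygous for PIK3CA H1047R, an oncogenic substitution in p110 alpha, the enzyme's catalytic subunit, and received the same 2 treatments. Both lines were bought as an isogenic pair from Horizon. The sources used here do not say if the knock-in line is a single clone or if the replicates were grown apart. Clone and genotype therefore cannot be told apart, and p-values measure only the spread between these libraries, which may be technical. The series' other 12 libraries, from mouse embryonic fibroblasts, were not analysed here.

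The lysosome is the acidic compartment in which cells break down macromolecules, and autophagy is the process that wraps cytoplasm in a membrane and delivers it there. Growth-factor signalling through PI3K, AKT and mTORC1 is known to hold both in check: mTORC1 phosphorylates ULK1 and keeps TFEB and TFE3 in the cytosol, and AKT keeps FOXO factors there. When the pathway is inhibited, these factors can enter the nucleus, where MiT/TFE factors bind the CLEAR element of lysosomal genes and FOXO factors act on a set of autophagy genes. RNA levels of these genes do not measure lysosome number, protein or autophagic flux.

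Each library held between 120177015 and 162755457 estimated read pairs. Levels are given as CPM, the summed estimated counts of a gene scaled to the library total. Differences are log2 fold changes from edgeR's quasi-likelihood test on all 12 libraries, with Benjamini-Hochberg adjustment over 21055 tested symbols, and a gene was called at an adjusted p under 0.05. The summed CPM of the 44 genes was 4596 ± 16.3 (SD, n = 3) in parental DMSO and 4784 ± 72.1 in parental BYL719 libraries. It was 5140 ± 77.6 in knock-in DMSO and 5586 ± 59.1 in knock-in BYL719 libraries. These are bulk samples, in which fewer cells of a type and less RNA per cell cannot be told apart. SQSTM1 gave 13.5% of that sum over all libraries, PSAP 13.4% and CTSB 11.4%. Per length, the most abundant in parental DMSO were SQSTM1 at 428 TPM, CTSB at 346 TPM and PSAP at 325 TPM, and the least RRAGD at 3.96 TPM and FNIP2 at 4.63 TPM. Markers fixed for the cell type were present, with KRT5 at 3190 to 4000 CPM and the 8 basal epithelial markers together at 6780 to 8230 CPM. That sum was lower in every knock-in library (6780 to 7070) than in any parental one (7810 to 8230), and 6 of the 8 were called lower in knock-in DMSO. KRT14 went the other way, from 51.4 to 52.4 CPM in parental to 244 to 296 CPM in knock-in DMSO, a log2 difference of 2.37 (adjusted p 6.1e-10). The part of these markers in the differences between the lines was not tested. Of the 4 melanocyte markers, which bear on MITF, TYR had 0 counts and DCT 31 counts over all 12 libraries, and the list summed to 1.4 to 1.61 CPM in parental DMSO, 0.869 to 1.2 in knock-in DMSO, 1.3 to 1.73 in parental BYL719 and 1.38 to 1.64 in knock-in BYL719. The 6 macrophage or osteoclast markers summed to 16.3 to 17.1 CPM in parental DMSO and 12.6 to 13.1 in knock-in DMSO, and to 15.8 to 15.9 and 10.4 to 11.1 under BYL719. Both sums, like MITF, were lower in knock-in DMSO than in parental DMSO. In the second list the genes went both ways there. CSF1R was called lower (6.2 to 7.83 against 12.1 to 12.8 CPM) and CD14 higher (4.29 to 5.87 against 3.58 to 3.74 CPM). With BYL719 in knock-in cells the sum of that list fell, while MITF rose. The part of these markers in the MITF differences was not tested.

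Replicate R2 of the knock-in DMSO group stood apart from R1 and R3. On the axis holding 14.4% of the variance it lay at 54.1, against 14.1 and 17.1 for the others. Among the 44 genes, the log2 difference of R2 from the mean of R1 and R3 fell with effective transcript length (Spearman rho -0.77, and -0.44 over 21055 tested genes), a description across genes that share these libraries. It ran from -0.76 for ATG2B, whose effective length averaged 8716 nt, to 0.31, and was 0.26 for GABARAP at 487 nt. R2 was the lowest of the 3 knock-in DMSO libraries for 22 genes and the highest for 20. This library enters the knock-in DMSO mean, so the main results for the 44 genes that rest on it are also given without it. Its part in the differences between groups was measured only in that way.

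**Figure D1:**
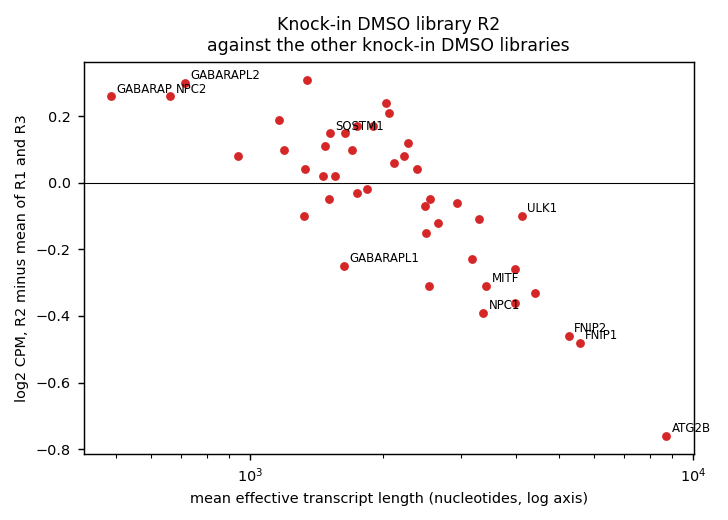
Each point is one of the 44 genes. The x axis is the mean effective transcript length in nucleotides on a log axis, and the y axis is log2 CPM of knock-in DMSO library R2 minus the mean of R1 and R3. Long transcripts such as ATG2B, FNIP1 and FNIP2 lie lowest, and short ones such as GABARAP and NPC2 lie above 0.

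BYL719 raised RNA of the autophagy-initiating kinase ULK1, the ATG8-family member GABARAPL1 and the transcription factor MITF in the knock-in line by 1.98- to 2.2-fold, the largest rises among the 44 genes, and raised ULK1 and GABARAPL1 less in the parental line. In knock-in cells 16 of the 44 genes rose (36.4%), against 15.1% of all tested genes, and 1 fell (ATG5), against 13.2%. In parental cells 2 rose, ULK1 and GABARAPL1, against 0.831% of all tested genes, and none of the 44 was called lower, against 0.589%. At an unadjusted p under 0.05, edgeR gave 7 higher and 0 lower in parental cells. All tested genes were not counted at that looser limit, here or below, so such counts have no share beside them. DESeq2 with adjustment gave 5 higher and 0 lower there, beside 424 and 469 of its 14986 tested genes. The median log2 fold change of the 44 genes was 0.08 in knock-in cells, beside 0.02 for all tested genes, and 0.05 in parental cells, beside 0.01. Without knock-in DMSO R2, the counts were 23 higher and 3 lower in knock-in cells and 8 higher in parental cells, in a fit that called 3326 of 21497 tested genes higher and 3651 lower in knock-in cells, and 906 higher and 1067 lower in parental cells. In parental cells none of the 44 was called without DMSO R2 or without BYL719 R3 of that line. Those fits called 70 higher and 30 lower of 21511 tested genes, and 65 and 15 of 21498. When only the groups compared were fitted, the counts were 9 higher and 0 lower in knock-in cells and 8 and 2 in parental cells. That fit called 1448 higher and 1166 lower of 19978 tested genes in knock-in cells. In parental cells it called 1673 and 1813 of 20098.

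The difference between the lines in this response was tested as an interaction, the log2 change in knock-in cells minus that in parental cells. It was called higher for 4 of the 44 genes, ULK1, MITF, GABARAPL1 and WIPI1, against 2.09% of all tested genes. It was called lower for 0 of them, against 0.798%. At an unadjusted p under 0.05 edgeR gave 15 higher and 0 lower, and the 2 shares above do not apply to that limit. DESeq2 gave 6 and 0, beside 809 and 625 of its 15712 tested genes. When knock-in DMSO R2 was left out, it was called for 11 higher and 1 lower, beside 1009 and 865 of 21497 tested genes.

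Without the drug the lines also differed. In DMSO, 14 of the 44 genes were higher in knock-in cells, against 17.0% of all tested genes, and 10 were lower, against 17.3%. Under BYL719, 14 were higher, against 11.5%, and 3 were lower, against 10.9%. Scaled by library totals without TMM, the second split was 12 higher and 5 lower, beside 2062 and 2565 of 21055 tested genes. Libraries that do not overlap are common. Every knock-in library lay above every parental one for 20.3% of all tested genes in DMSO and 20.9% under BYL719. Every one lay below for 25.5% and 25.2%. Every treated library lay above every control for 20.6% in knock-in and 16.5% in parental cells. The comparison of lines in DMSO and the response to BYL719 in knock-in cells share the 3 knock-in DMSO libraries, as the parental response and the comparison of lines share parental DMSO, so each comparison's values are set side by side without a count of shared genes.

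**Figure D2:**
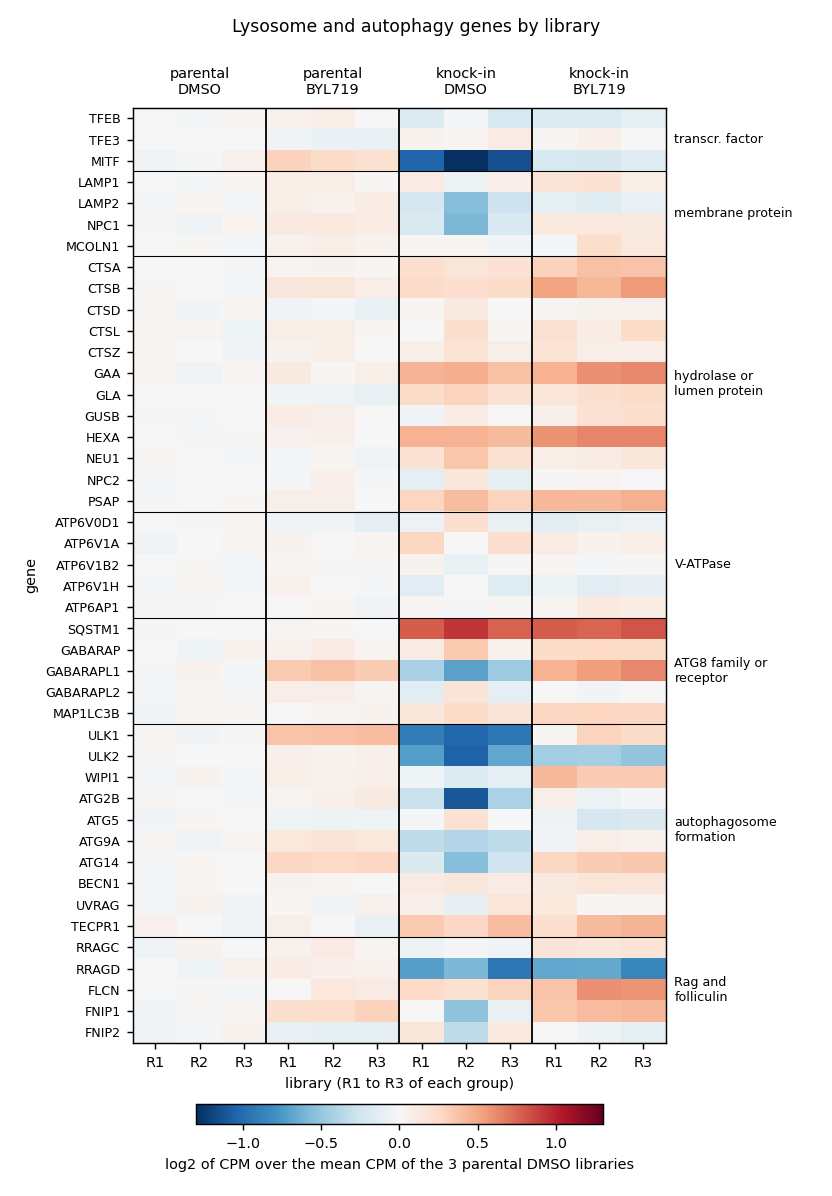
Rows are the 44 genes in order of role and columns the 12 libraries. Colour is log2 of CPM over the mean CPM of the 3 parental DMSO libraries, from blue (lower) to red (higher). The MITF, ULK1, ULK2 and RRAGD rows are blue in knock-in DMSO, and the SQSTM1 and HEXA rows are red in both knock-in groups.

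Of the transcription factors, MITF is the member best known from melanocytes and osteoclasts. It was at 17.9, 18.4 and 19.3 CPM in parental DMSO libraries R1 to R3 and at 22.8, 21.8 and 21.2 CPM in parental BYL719. Knock-in DMSO libraries had 9.1, 7.04 and 8.38 CPM and knock-in BYL719 libraries 16.2, 16 and 16.6 CPM. No group overlapped another: knock-in DMSO lay lowest, and knock-in BYL719 lay between it and parental DMSO. In DMSO, MITF was lower in knock-in cells by a log2 difference of -1.15 (SE 0.0756, adjusted p 2.2e-07). BYL719 raised it by 0.99 in knock-in cells (SE 0.0756, adjusted p 2.48e-06), while the parental change was 0.24 (SE 0.0735, adjusted p 0.159). The interaction was 0.75 (SE 0.105, adjusted p 0.00268). Under BYL719 MITF was also lower in knock-in cells, by a log2 difference of -0.41 (adjusted p 0.00141). Without knock-in DMSO R2 the values were -1.07 between lines in DMSO, 0.89 for the knock-in response and 0.65 for the interaction, each called, and the parental change of 0.24 was then called too (adjusted p 0.00473).

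TFEB and TFE3, which control lysosomal genes through their entry into the nucleus, moved little at the RNA level. TFEB was at 10.9, 10.7 and 11.1 CPM in parental DMSO, 11.3, 11.6 and 10.9 in parental BYL719, 9.73, 10.8 and 9.51 in knock-in DMSO, and 9.66, 9.67 and 10.0 in knock-in BYL719. Its log2 change with BYL719 was 0.04 (SE 0.0641, adjusted p 0.929) in parental and -0.04 (SE 0.0644, adjusted p 0.693) in knock-in cells. It was called in none of the 5 comparisons with all libraries (1 at an unadjusted p under 0.05, -0.17 between lines under BYL719). Without knock-in DMSO R2 it was called lower in knock-in cells in DMSO (-0.17, adjusted p 0.0218) and under BYL719 (-0.18, adjusted p 0.00699). TFE3 was the more abundant per length, at 23.9 TPM against 8.05 TPM for TFEB and 7.59 TPM for MITF in parental DMSO. TFE3 libraries had 55.1, 55.2 and 55.3 CPM in parental DMSO, 53.5, 52.1 and 51.8 in parental BYL719, 57.1, 56.0 and 59.4 in knock-in DMSO, and 55.9, 57.7 and 55.3 in knock-in BYL719. Its single call with all libraries was the difference between lines under BYL719, 0.13 higher in knock-in cells (SE 0.0385, adjusted p 0.0304). That call was lost in 13 of 20 other settings, among them the replicate block, with adjusted p up to 0.264. The TFE3 difference in DMSO, 0.09, was also called without knock-in DMSO R2 (adjusted p 0.0364).

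Salmon divided MITF reads mainly between transcripts MITF-204 and MITF-202. The share of MITF-204 ran from 44.4% to 93.0% within the knock-in DMSO group alone, and MITF-202 was listed at 0 in R3 of that group. The division between them was thus less even across replicates than the gene total.

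Promoters show where the factors could act on paper. RefSeq windows of 300 bases on GRCh38.p14, from 250 before to 50 after a start site, were held for 35 of the 44 genes, in 44 windows. Both strands were searched for CACGTG, the E-box at the heart of the CLEAR element, for TCACGTGA, the CLEAR core that contains it, and for GTAAACA, a FOXO motif. CACGTG was in 10 of the 44 windows (22.7%), against 8.8% of 17803 windows of tested genes and 7.3% of all 35116 windows. TCACGTGA was in 5 windows (11.4%), those of LAMP1, ATP6V0D1, GAA, MCOLN1 and CTSA, against 1.5% of tested and 1.0% of all windows. CLEAR is the element of lysosomal genes, which were chosen here by name, so these higher shares of CACGTG and TCACGTGA are no result of these data. GTAAACA was in 1 window (2.3%), that of CTSL, against 2.7% and 3.4%. ATG14, FNIP1, RRAGC, NEU1 and CTSD held CACGTG without the CLEAR core. Of the 16 genes that rose with BYL719 in knock-in cells, 9 had a window with none of the 3 motifs (ULK1, GABARAPL1, MITF, WIPI1, ATG2B, ATG9A, FLCN, NPC1 and ULK2), 4 had CACGTG (ATG14, FNIP1, RRAGC and CTSA), and 3 had no window in the table. Of all 35 genes with a window, 10 held CACGTG. A match is a run of letters, and its absence from a window says nothing about more distant sites.

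The 200 bases before the start site follow, with any CACGTG or TCACGTGA in capitals and everything else in lower case, for 3 genes with the CLEAR core (GAA, MCOLN1 and CTSA), for 2 BYL719-raised genes with an E-box only (ATG14 and FNIP1), and for the 2 genes that rose most (ULK1 and GABARAPL1). Their positions on GRCh38.p14 are GAA chr17:80101381-80101580 (plus strand), MCOLN1 chr19:7522424-7522623 (plus strand), CTSA chr20:45891135-45891334 (plus strand), ATG14 chr14:55411831-55412030 (minus strand), FNIP1 chr5:131797018-131797217 (minus strand), ULK1 chr12:131894422-131894621 (plus strand) and GABARAPL1 chr12:10212677-10212876 (plus strand). All are read 5′ to 3′ on the gene's strand.
GAA: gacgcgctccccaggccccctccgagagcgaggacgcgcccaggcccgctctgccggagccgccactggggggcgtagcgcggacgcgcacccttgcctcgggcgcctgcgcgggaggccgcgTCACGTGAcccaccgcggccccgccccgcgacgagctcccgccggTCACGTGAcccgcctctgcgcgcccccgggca
MCOLN1: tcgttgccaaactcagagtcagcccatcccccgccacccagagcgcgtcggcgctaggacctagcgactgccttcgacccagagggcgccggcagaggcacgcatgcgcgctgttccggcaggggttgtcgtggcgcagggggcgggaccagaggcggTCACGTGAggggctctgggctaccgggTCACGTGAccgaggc
CTSA: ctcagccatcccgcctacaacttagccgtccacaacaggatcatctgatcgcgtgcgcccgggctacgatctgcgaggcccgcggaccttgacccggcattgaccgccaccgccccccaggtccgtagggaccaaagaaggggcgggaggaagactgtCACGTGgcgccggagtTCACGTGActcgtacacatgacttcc
ATG14: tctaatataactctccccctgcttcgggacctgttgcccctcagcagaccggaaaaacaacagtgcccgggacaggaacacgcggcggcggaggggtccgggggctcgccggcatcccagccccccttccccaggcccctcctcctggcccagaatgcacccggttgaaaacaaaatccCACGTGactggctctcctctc
FNIP1: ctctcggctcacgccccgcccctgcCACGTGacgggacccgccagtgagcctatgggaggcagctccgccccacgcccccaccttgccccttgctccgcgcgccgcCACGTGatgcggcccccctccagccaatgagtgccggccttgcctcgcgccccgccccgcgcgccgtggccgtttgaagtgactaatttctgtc
ULK1: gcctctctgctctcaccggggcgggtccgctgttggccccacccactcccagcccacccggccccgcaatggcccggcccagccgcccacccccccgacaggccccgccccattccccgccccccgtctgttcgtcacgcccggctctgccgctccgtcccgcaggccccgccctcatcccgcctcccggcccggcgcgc
GABARAPL1: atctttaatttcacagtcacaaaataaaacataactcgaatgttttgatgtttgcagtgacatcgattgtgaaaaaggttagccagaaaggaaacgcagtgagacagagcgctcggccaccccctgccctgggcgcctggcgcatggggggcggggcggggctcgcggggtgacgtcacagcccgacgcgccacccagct

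In these windows the first base of TCACGTGA lay 77 and 32 bases before the start of GAA, 42 and 15 before that of MCOLN1, and 26 before that of CTSA. CACGTG began 21 bases before ATG14 and 175 and 94 before FNIP1. MCOLN1, the lysosomal calcium channel with 2 CLEAR cores, was at 19.8 to 20.3 CPM in parental DMSO, 20.7 to 21.2 in parental BYL719, 19.6 to 20.3 in knock-in DMSO and 19.7 to 23.4 in knock-in BYL719, and was called in no comparison with all libraries. LAMP1 and ATP6V0D1, the others with the core, were also called in none, while GAA and CTSA were higher in knock-in cells and CTSA rose with BYL719 there. The windows of ULK1 and GABARAPL1, which had the largest responses, show neither motif, while CACGTG was in 8.8% of windows of tested genes. Whether these sites act in these cells was not tested.

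Of the 10 genes of autophagosome formation, 6 rose with BYL719 in knock-in cells, beside 15.1% of all tested genes (ULK1, ATG14, ATG2B, WIPI1, ATG9A and ULK2). ATG5 fell, and BECN1, UVRAG and TECPR1 were not called. In parental cells edgeR called ULK1 among the 10, and DESeq2 also called ATG14 and ATG9A. In DMSO 5 of the 10 were lower in knock-in cells and 2 were higher, beside 17.3% and 17.0% of all tested genes. Differences between roles were not tested. Their summed CPM was 489.0 ± 3.52 in parental DMSO, 539.3 ± 0.759 in parental BYL719, 394.0 ± 15.1 in knock-in DMSO and 512.1 ± 12.7 in knock-in BYL719 libraries.

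ULK1 (ENSG00000177169.10, chr12:131894622-131923150) encodes the kinase that starts autophagosome formation and that mTORC1 phosphorylates. Parental DMSO libraries had 92.7, 88.9 and 92.6 CPM and parental BYL719 libraries 118, 119 and 121 CPM. Knock-in DMSO libraries had 49.1, 45.1 and 47.7 CPM and knock-in BYL719 libraries 93.1, 112 and 108 CPM. The drug raised every treated library above every control library of its line, and every treated knock-in library lay above every untreated parental one. The log2 change was 1.14 (SE 0.0604, adjusted p 1.43e-07), a 2.2-fold rise, in knock-in cells and 0.38 (SE 0.0595, adjusted p 0.00838), a 1.3-fold rise, in parental cells. The interaction was 0.76 (SE 0.0844, adjusted p 0.000563). In DMSO the knock-in line was lower by a log2 difference of -0.92 (adjusted p 2.05e-07), and under BYL719 the difference was -0.17 (SE 0.0594, adjusted p 0.0653). The parental call was lost without parental DMSO R2 or parental BYL719 R3, and with effective-length offsets, with adjusted p up to 0.0621. Without knock-in DMSO R2 the knock-in response was 1.10, the DMSO difference -0.90, the interaction 0.73, and the difference under BYL719, then -0.18, was called (adjusted p 0.0121).

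ULK2, the related kinase, was lower in the knock-in line under either treatment. It was at 36.9, 36.3 and 36.3 CPM in parental DMSO and 38.3, 37.7 and 38.2 in parental BYL719, against 22.2, 17.6 and 22.9 in knock-in DMSO and 26.7, 27.0 and 25.5 in knock-in BYL719. The lines did not overlap. The log2 difference between lines was -0.78 (SE 0.0721, adjusted p 4.75e-06) in DMSO, or -0.68 without R2, and -0.50 (SE 0.0717, adjusted p 0.000223) under BYL719. BYL719 raised ULK2 in knock-in cells by 0.33 (adjusted p 0.00456), or by 0.22 without knock-in DMSO R2, while the parental change was 0.06 (SE 0.0713). The interaction for ULK2 was 0.28 (adjusted p 0.183), and 0.17 without R2 (adjusted p 0.0437).

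WIPI1 encodes a protein that binds phosphatidylinositol 3-phosphate on the forming autophagosome. It was at 11.9, 12.5 and 12.0 CPM in parental DMSO, 12.8, 12.6 and 12.7 in parental BYL719, 11.7, 10.7 and 11.1 in knock-in DMSO, and 16.2, 15.2 and 15.2 in knock-in BYL719. No group overlapped another, and the widest gap set the knock-in BYL719 libraries above the rest. The log2 change was 0.47 (SE 0.0516, adjusted p 3.81e-05) in knock-in and 0.06 (SE 0.0516, adjusted p 0.769) in parental cells, and the interaction was 0.41 (SE 0.073, adjusted p 0.0112). The response was 0.44 and the interaction 0.39 without knock-in DMSO R2. With effective-length offsets the adjusted p of the WIPI1 interaction was 0.127. WIPI1 overlaps PRKAR1A, which averaged 253 CPM against 12.9 for WIPI1, and how reads at the overlap were divided was not tested.

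ATG14, a subunit of the autophagy-specific PI3K class III complex, was at 25.5, 26.4 and 26.1 CPM in parental DMSO and 31.4, 31.1 and 31.3 in parental BYL719. Knock-in DMSO libraries had 22.8, 17.7 and 21.8 CPM, R2 being the lowest, and knock-in BYL719 libraries 31.3, 32.6 and 33.1 CPM. Every treated library of either line lay above every control. The log2 change was 0.64 (SE 0.0693, adjusted p 3.81e-05) in knock-in cells, or 0.53 without R2. The parental change of 0.26 (SE 0.0689, adjusted p 0.0975) was not called with all libraries and was called without knock-in DMSO R2 (adjusted p 0.000209). The ATG14 interaction was 0.37 (adjusted p 0.0679), and 0.27 without R2 (adjusted p 0.00306). ATG14 overlaps FBXO34, at 33.0 CPM.

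ATG2B transfers lipid to the growing membrane and has the longest transcript of the 44 genes. It was at 46.1, 45.6 and 45.1 CPM in parental DMSO and 46.8, 47.7 and 49.6 in parental BYL719. Knock-in DMSO libraries had 37.4, 21.2 and 34.4 CPM, and knock-in BYL719 libraries 48.1, 43.4 and 44.9 CPM. R2 of the knock-in DMSO group was far below the other 2, which were themselves below every other library. The log2 change with BYL719 in knock-in cells was 0.55 (SE 0.143, adjusted p 0.0126) with R2 and 0.33 (adjusted p 9.05e-05) without it, and the interaction, 0.48 (adjusted p 0.251), became 0.27 (adjusted p 0.0199). The difference between lines in DMSO was -0.53 (SE 0.142, adjusted p 0.012) and -0.33 without R2. The response was not called without the low-count filter (adjusted p 0.0607), and fits of the 2 groups alone called neither value (adjusted p 0.0913 and 0.0653). ATG2B moved more with that library than any other of the 44 genes.

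ATG9A, a scramblase carried on vesicles to the forming autophagosome, was at 126, 121 and 128 CPM in parental DMSO, 137, 140 and 137 in parental BYL719, 99.1, 95.9 and 99.6 in knock-in DMSO, and 122, 133 and 130 in knock-in BYL719. Knock-in DMSO lay below all other groups. The log2 difference between lines was -0.32 in DMSO (SE 0.0437, adjusted p 0.000116), and the knock-in response was 0.38 (SE 0.0437, adjusted p 5.4e-05). In parental cells the change was 0.13 (adjusted p 0.189), and the interaction was 0.25 (adjusted p 0.0553). Leaving out knock-in DMSO R2 gave ATG9A values of -0.32 between lines and 0.36 for the knock-in response, and the parental change (adjusted p 0.0207) and the interaction (0.24, adjusted p 0.00671) were called.

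ATG5, part of the complex that attaches LC3 to lipid, was the one gene that fell. It was at 47.0, 54.6 and 47.4 CPM in knock-in DMSO and 45.5, 40.7 and 41.7 in knock-in BYL719, with a log2 change of -0.23 (SE 0.069, adjusted p 0.0278). Here R2 was the highest control library, and without it the change was -0.15 (adjusted p 0.0208). The call was lost without knock-in BYL719 R2 or R3. Parental libraries had 46.4, 48.2 and 47.8 CPM in DMSO and 45.8, 45.5 and 45.8 under BYL719, a log2 change of -0.06 (SE 0.069).

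TECPR1, which links autophagosomes to lysosomes, was higher in knock-in cells, by 0.36 in DMSO (SE 0.0665, adjusted p 0.00111) and 0.39 under BYL719 (adjusted p 0.000938). Its libraries had 13.2, 12.7 and 12.3 CPM in parental DMSO, 16.1, 15.3 and 16.8 in knock-in DMSO, 13.4, 12.8 and 11.9 in parental BYL719, and 14.8, 16.9 and 17.3 in knock-in BYL719. Its mean effective length moved with the group, from 2972 nt in parental DMSO to 4021 nt in knock-in DMSO. With effective-length offsets the TECPR1 difference in DMSO was -0.06 (adjusted p 0.878) and that under BYL719 was lost (adjusted p 0.642). BECN1, the core of the class III complex, was 0.15 higher in knock-in cells in DMSO (adjusted p 0.0119) and 0.14 higher under BYL719 (adjusted p 0.0207), the second call holding in 6 of 12 fits that left out 1 library.

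**Figure D3:**
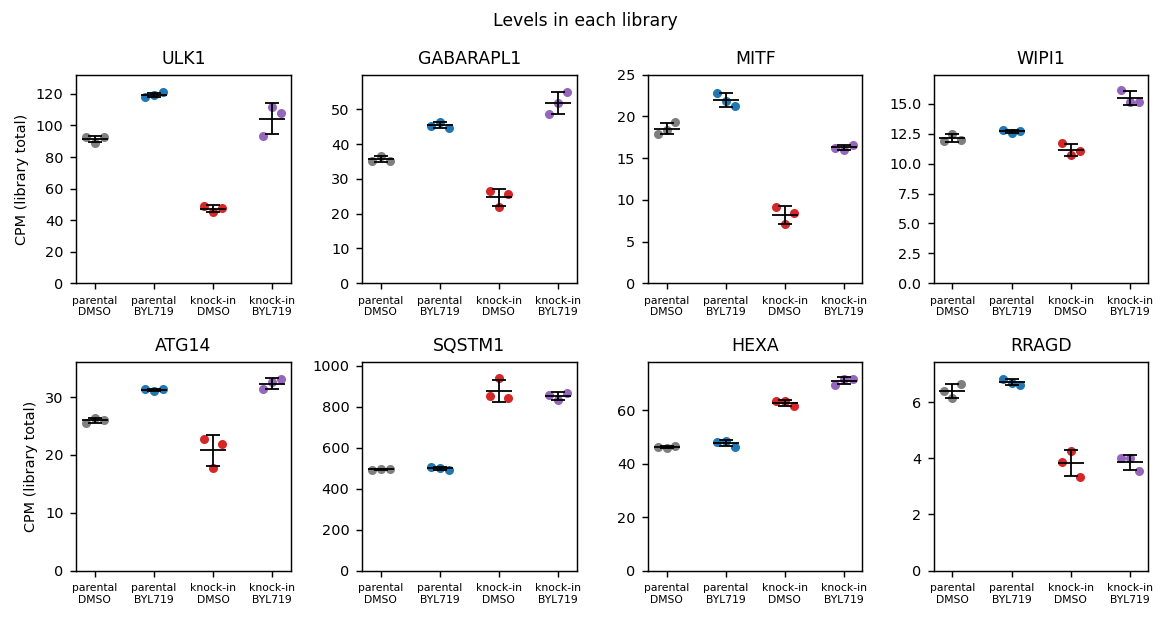
CPM of 8 of the genes in each of the 12 libraries, by group, with axes from 0. Points are libraries, and the bars are the mean and SD of 3. ULK1, GABARAPL1, MITF and ATG14 are lowest in knock-in DMSO, WIPI1 is highest in knock-in BYL719, SQSTM1 and HEXA are higher and RRAGD lower in both knock-in groups.

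Among ATG8-family genes, whose products are attached to the autophagosome membrane and bind receptors, GABARAPL1 was the one gene called for BYL719 with all libraries. Over all tested genes, BYL719 raised 15.1% in knock-in and 0.831% in parental cells. GABARAPL1 (ENSG00000139112.11, chr12:10212877-10223128) was at 35.2, 36.7 and 35.0 CPM in parental DMSO and 45.2, 46.4 and 44.7 in parental BYL719. Knock-in DMSO libraries had 26.6, 22.0 and 25.6 CPM and knock-in BYL719 libraries 48.7, 51.9 and 54.9 CPM. The groups did not overlap, and the order of the lines turned round with treatment: knock-in was lowest in DMSO and highest under BYL719. The log2 difference between lines was -0.50 in DMSO (SE 0.0625, adjusted p 5.86e-05, and -0.44 without R2) and 0.22 under BYL719 (SE 0.0618, adjusted p 0.0232). BYL719 raised GABARAPL1 by 1.07 in knock-in (SE 0.0628, adjusted p 3.18e-07) and 0.35 in parental cells (SE 0.062, adjusted p 0.0167), with an interaction of 0.72 (SE 0.0879, adjusted p 0.00116). The parental call was lost without any 1 of the 6 parental libraries, with adjusted p up to 0.0979, and that between lines under BYL719 held in 7 of 12 fits that left out 1 library. Without knock-in DMSO R2 the knock-in response was 0.98. The near-identical copy GABARAPL3 had 0 counts.

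GABARAPL2 was called in no comparison, and its log2 change with BYL719 in knock-in cells was 0.01 (SE 0.0773), or 0.11 without knock-in DMSO R2 (adjusted p 0.0151). MAP1LC3B, the gene of the widely used marker LC3B, did not pass the test for BYL719 (0.08 in knock-in, SE 0.0443, adjusted p 0.223, and 0.02 in parental cells, SE 0.0444), though the knock-in change, 0.10, was called without R2 (adjusted p 0.0191), as was that of GABARAP at 0.16 (adjusted p 0.00285). It was higher in knock-in cells by 0.22 in DMSO (adjusted p 0.00247) and 0.27 under BYL719 (adjusted p 0.000632). Its copy MAP1LC3B2 reached at most 0.289 CPM. GABARAP, which overlaps PHF23, was 0.20 higher in knock-in cells in DMSO (adjusted p 0.0457), which became 0.09 without R2 (adjusted p 0.0466) and was called in 3 of 12 fits that left out 1 library.

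SQSTM1, also called p62, is the receptor that carries ubiquitinated cargo to LC3 and is itself degraded by autophagy. It had the largest positive difference between the lines of the 44 genes in both comparisons. Parental libraries had 489, 496 and 495 CPM in DMSO and 505, 498 and 492 under BYL719. Knock-in libraries had 850.0, 938 and 842 CPM in DMSO and 854, 832 and 867 under BYL719. Every knock-in library lay above every parental one. The log2 difference was 0.86 in DMSO (SE 0.0531, adjusted p 1.31e-07), or 0.79 without R2, and 0.80 under BYL719 (SE 0.053, adjusted p 2.76e-07). BYL719 left it at a log2 change of -0.05 in knock-in (SE 0.0527, adjusted p 0.525) and 0.01 in parental cells (SE 0.0527, adjusted p 0.988). SQSTM1 overlaps MGAT4B, at 291 CPM, and MRNIP, at 43.0 CPM.

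Among the lysosomal hydrolases and lumen proteins, calls between the lines with all libraries had the knock-in line higher, and without knock-in DMSO R2 NPC2 was called lower there in DMSO (-0.10, adjusted p 0.0194). In DMSO 7 of 12 were higher in knock-in cells and none lower by edgeR or DESeq2, beside 17.0% and 17.3% of all tested genes by edgeR. The median log2 difference was 0.24. Under BYL719 6 of 12 were higher and none lower by either tool, beside 11.5% and 10.9% by edgeR, with a median of 0.22. BYL719 raised 3 of 12 in knock-in cells (CTSB, HEXA and CTSA), beside 15.1% of all tested genes. In parental cells it was called for none by edgeR or DESeq2, with 1, CTSB, at an unadjusted p under 0.05. By edgeR it was called there for 0.831% of all tested genes higher and 0.589% lower. The interaction was called by edgeR for 2.09% of all tested genes higher and 0.798% lower. For the 12 together, it had no call in edgeR or DESeq2 and 3 genes at an unadjusted p under 0.05. HEXA was called without knock-in DMSO R2 (0.15, adjusted p 0.0446). Summed CPM of the 12 was 2102 ± 6.24 and 2173 ± 55.6 in parental DMSO and BYL719 libraries, and 2413 ± 84.0 and 2619 ± 46.7 in knock-in ones.

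HEXA, the alpha subunit of beta-hexosaminidase, had the largest difference of the 12 under either treatment. It was at 46.3, 45.8 and 46.6 CPM in parental DMSO, 48.0, 48.4 and 46.3 in parental BYL719, 63.4, 63.3 and 61.4 in knock-in DMSO, and 69.5, 71.7 and 71.8 in knock-in BYL719. All knock-in libraries lay above all parental ones, and the treated knock-in libraries above the untreated. The log2 difference between lines was 0.47 in DMSO (SE 0.041, adjusted p 2.84e-06) and 0.60 under BYL719 (SE 0.041, adjusted p 3.29e-07). The HEXA difference in DMSO was 0.45 without knock-in DMSO R2. The change with BYL719 was 0.17 in knock-in cells (SE 0.0408, adjusted p 0.00749) and 0.04 in parental cells (SE 0.041).

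GAA, the acid alpha-glucosidase that degrades glycogen, was at 16.8, 15.9 and 16.7 CPM in parental DMSO, 17.8, 16.6 and 17.3 in parental BYL719, 22.3, 22.8 and 21.5 in knock-in DMSO, and 22.5, 24.8 and 25.3 in knock-in BYL719. The lines did not overlap, with log2 differences of 0.46 in DMSO (SE 0.0576, adjusted p 6.01e-05) and 0.52 under BYL719 (SE 0.0575, adjusted p 2.69e-05). The GAA difference in DMSO was 0.43 without that library. With effective-length offsets the adjusted p of the GAA difference in DMSO was 0.0533. The 2 CLEAR cores of its promoter window are shown above. Its response to BYL719 was not called in either line (0.12 in knock-in, SE 0.0571, adjusted p 0.146).

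PSAP, the precursor of the saposins that activate sphingolipid hydrolases, was at 576, 581 and 588 CPM in parental DMSO and 707, 770.0 and 709 in knock-in DMSO. Under BYL719 it was at 612, 613 and 584 CPM in parental and 783, 778 and 802 in knock-in libraries. Again the lines did not overlap, with log2 differences of 0.35 (SE 0.0501, adjusted p 0.000167, and 0.30 without R2) and 0.41 (SE 0.0501, adjusted p 5.84e-05). CTSB, a cysteine protease, was at 495, 489 and 485 CPM in parental DMSO and 542, 547 and 519 in parental BYL719, against 580.0, 571 and 579 in knock-in DMSO and 700.0, 662 and 717 in knock-in BYL719. It rose with BYL719 by 0.26 in knock-in cells (SE 0.0424, adjusted p 0.000706), or 0.25 without R2. The parental change was 0.13 (SE 0.0424, adjusted p 0.209), and 0.12 without R2, then called (adjusted p 0.0296). CTSA, the protective protein of the neuraminidase complex, was at 60.1, 60.1 and 58.9 CPM in parental DMSO, 61.1, 61.5 and 60.6 in parental BYL719, 69.5, 66.4 and 68.0 in knock-in DMSO and 73.5, 78.0 and 77.4 in knock-in BYL719. Its log2 difference between lines was 0.35 under BYL719 (SE 0.0374, adjusted p 1.99e-05), and its knock-in response was 0.16 (adjusted p 0.00668), or 0.14 without R2.

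NEU1, the lysosomal neuraminidase, and GLA, alpha-galactosidase A, were higher in knock-in cells in DMSO by 0.28 (SE 0.0563, adjusted p 0.0022) and 0.27 (SE 0.0463, adjusted p 0.000743). NEU1 was at 40, 39.4 and 39.0 CPM in parental and 45.0, 50.7 and 45.2 CPM in knock-in DMSO. GLA was at 40.6, 40.9 and 40.7 CPM in parental and 48.1, 49.8 and 46.4 CPM in knock-in DMSO. Neither gene's lines overlapped in DMSO, and without R2 the differences were 0.20 and 0.23. BYL719 left NEU1 at -0.14 in knock-in cells (SE 0.0562, adjusted p 0.0761), which DESeq2 and the fits without knock-in DMSO R1 or R3 called lower. The other lumen genes, CTSD, CTSL, CTSZ, GUSB and NPC2, were called in no comparison, with log2 values between -0.05 and 0.15. Without knock-in DMSO R2, CTSL, GUSB, NPC2 and PSAP were also called higher with BYL719 in knock-in cells, by 0.13 to 0.17.

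Of the membrane proteins, LAMP2, a major glycoprotein of the lysosomal membrane, and NPC1, the cholesterol exporter, were lower in knock-in DMSO and rose with BYL719. NPC1 (ENSG00000141458.13) was at 96.4, 92.4 and 97.0 CPM in parental DMSO, 103, 104 and 102 in parental BYL719, 83.7, 63.5 and 83.0 in knock-in DMSO, and 104, 105 and 103 in knock-in BYL719. R2 was again the lowest. BYL719 raised NPC1 in knock-in cells by 0.44 (SE 0.0763, adjusted p 0.00112), or 0.31 without R2, a fit that also called the parental change (0.10, adjusted p 0.0319) and the interaction (0.21, adjusted p 0.00476). The difference between lines in DMSO was -0.29 (adjusted p 0.0113), and -0.18 without R2. LAMP2 was at 211, 216 and 211 CPM in parental DMSO, 224, 220.0 and 228 in parental BYL719, 183, 145 and 176 in knock-in DMSO, and 196, 191 and 199 in knock-in BYL719. Its log2 difference between lines in DMSO was -0.31 (SE 0.0628, adjusted p 0.0021), or -0.23 without R2, and its knock-in response was 0.21 (adjusted p 0.0245), or 0.11 without R2, a call that held in 9 of 12 fits that left out 1 library. Transcript LAMP2-202 held 66.2% to 70.5% of LAMP2 counts in every library. NPC1 overlaps RMC1, at 23.2 CPM.

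The V-ATPase acidifies the lysosome and serves as a platform for mTORC1. Among its 5 genes ATP6V1A was the one call in the 5 comparisons, 0.19 higher in knock-in DMSO (SE 0.0586, adjusted p 0.0237). Over all tested genes 17.0% were called higher there. BYL719 was called by edgeR and DESeq2 for none of the 5 in either line, with 0 at an unadjusted p under 0.05. By edgeR it was called higher for 15.1% and lower for 13.2% of all tested genes in knock-in cells. In parental cells these shares were 0.831% and 0.589%. ATP6V1A was at 126, 104 and 121 CPM in knock-in DMSO, with R2 inside the parental range of 101 to 107, and the call held in 8 of 12 fits that left out 1 library. Without R2 the difference was 0.26 and the interaction, -0.19, was called lower (adjusted p 0.0291), as was the response in knock-in cells, -0.17 (adjusted p 0.00236). Summed CPM of the 5 was 442.9 ± 3.63 in parental DMSO, 442.2 ± 5.73 in parental BYL719, 452.6 ± 4.05 in knock-in DMSO and 442.0 ± 2.74 in knock-in BYL719.

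Rag GTPases bring mTORC1 to the lysosome, and folliculin (FLCN) with FNIP1 or FNIP2 acts on RagC and RagD, a step needed to keep TFEB and TFE3 phosphorylated. RRAGD, itself a known MiT/TFE target, was at 6.38, 6.15 and 6.64 CPM in parental DMSO and 6.84, 6.68 and 6.62 in parental BYL719, against 3.88, 4.27 and 3.33 in knock-in DMSO and 4.0, 4.02 and 3.56 in knock-in BYL719. The lines did not overlap under either treatment, with log2 differences of -0.71 (SE 0.0954, adjusted p 0.000107) and -0.77 (SE 0.0954, adjusted p 6.61e-05). Without R2 the RRAGD difference in DMSO was -0.81. BYL719 left RRAGD at 0.00 in knock-in cells (SE 0.0964) and 0.07 in parental cells (SE 0.0937).

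FLCN was higher in knock-in cells and rose with BYL719 there. It was at 15.6, 15.7 and 15.2 CPM in parental DMSO, 15.6, 17 and 16.7 in parental BYL719, 18.5, 17.8 and 19.0 in knock-in DMSO, and 20.1, 23.4 and 23.0 in knock-in BYL719. The log2 difference between lines was 0.28 in DMSO (SE 0.0582, adjusted p 0.0029) and 0.46 under BYL719 (SE 0.0581, adjusted p 8.48e-05), and the knock-in response was 0.26 (adjusted p 0.00551), or 0.23 without R2. FNIP1 was at 60.5, 63.1 and 63.4 CPM in parental DMSO, 72.2, 73.2 and 76.5 in parental BYL719, 62.5, 43.5 and 58.5 in knock-in DMSO, and 80, 82.6 and 84.3 in knock-in BYL719. R2 was far below R1 and R3, which were near the parental controls. BYL719 raised FNIP1 in knock-in cells by 0.58 (SE 0.0937, adjusted p 0.000634), or 0.44 without R2, and the parental change was 0.24 (SE 0.0935, adjusted p 0.289), which was called without R2 (adjusted p 0.00059), as was the FNIP1 interaction, 0.20 (adjusted p 0.0299). RRAGC also rose in knock-in cells, by 0.20 (adjusted p 0.00501), or 0.21 without R2.

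FNIP1 is also a gene in which the 2 main transcripts were divided differently between the lines. FNIP1-202 held 25.9% to 28.4% of its counts in the 6 parental libraries and 35.3% to 39.0% in the 6 knock-in libraries, and the other main transcript held 65.4% to 67.0% and 53.3% to 59.7%. The ranges do not overlap. These are Salmon's divisions of reads between transcripts, and the difference was not tested. FNIP2 was called in no comparison, and its log2 change in knock-in cells was -0.06 with R2 and -0.20 (adjusted p 0.00443) without it.

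**Figure D4:**
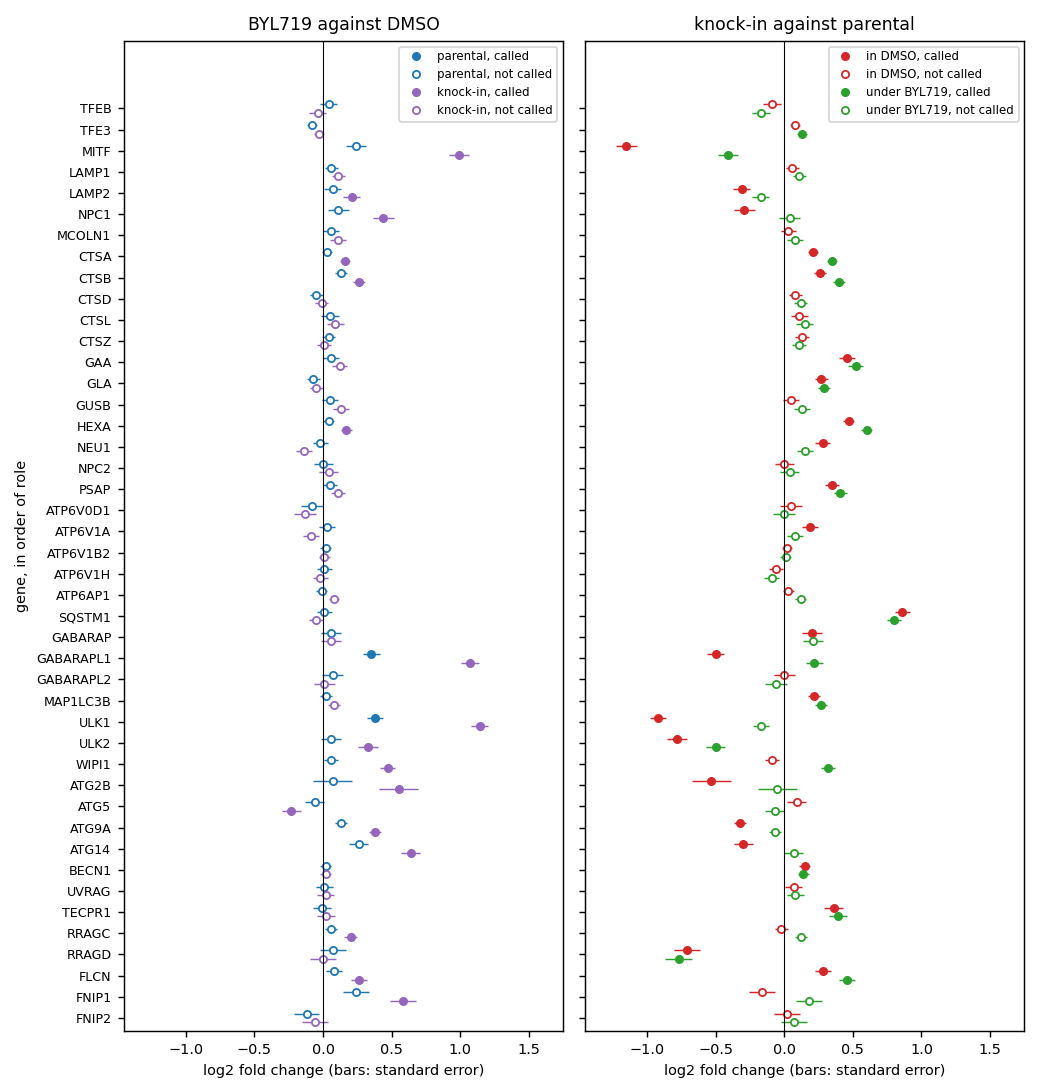
Log2 fold changes of the 44 genes with their standard errors, BYL719 against DMSO in each line (left) and knock-in against parental under each treatment (right). Filled points were called at an adjusted p under 0.05 and open points were not. ULK1, GABARAPL1 and MITF lie farthest right for the knock-in response, and SQSTM1 and HEXA for the comparison of lines.

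Further genes of the same pathways were counted with the same calls. Values and counts for all the lists that follow include knock-in DMSO R2, which deviated with transcript length. How far the knock-in responses, the differences between lines in DMSO and the interactions of these lists rest on that library is not given here. Of 39 other core autophagy genes, BYL719 raised 3 in parental cells, beside 0.831% of all tested genes, and lowered none, beside 0.589%. In knock-in cells it raised 15 and lowered 6, beside 15.1% and 13.2%, with a median log2 change of 0.11. The largest were RB1CC1, the scaffold of the ULK1 complex, at 0.94 (SE 0.053, adjusted p 2.31e-07), ZFYVE1, a marker of the omegasome, at 0.92 (SE 0.0554, adjusted p 3.6e-07), and the receptor NBR1 at 0.71 (SE 0.0552, adjusted p 2.8e-06). RB1CC1 and ZFYVE1 also rose in parental cells, by 0.34 (adjusted p 0.00833) and 0.28 (adjusted p 0.0269). All 3 had a called interaction, of 0.60, 0.64 and 0.51. Interactions were called higher for 8 of the 39 and lower for none by edgeR, beside 2.09% and 0.798% of all tested genes. DESeq2 called 10 and 3, beside 809 and 625 of its 15712 tested genes. In edgeR 17 of 39 were at an unadjusted p under 0.05.

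Of 50 other lysosomal hydrolases and membrane proteins, BYL719 raised 13 and lowered 3 in knock-in cells, beside 15.1% and 13.2% of all tested genes, with a median of 0.10. In parental cells it was called for none by edgeR or DESeq2, with 3 at an unadjusted p under 0.05. By edgeR it was called there for 0.831% of all tested genes higher and 0.589% lower. Between the lines in DMSO 17 were higher in knock-in cells, beside 17.0% of all tested genes, and 8 were lower, a share close to the 17.3% of all tested genes. The largest differences there were LAPTM5 at 2.21 (0.589 CPM in parental and 2.69 CPM in knock-in DMSO), the protease CTSV at -1.0 (63.0 and 31.0 CPM) and the fucosidase FUCA1 at -0.76 (2.09 and 1.21 CPM). Of 16 other V-ATPase subunits, 6 were higher in knock-in DMSO, beside 17.0% of all tested genes. BYL719 lowered 5 in knock-in cells, beside 13.2%, with a median of -0.18. Both comparisons use knock-in DMSO R2, which deviated with transcript length, and how far these counts rest on it is not given here. By edgeR and by DESeq2 none of the 16 was called in the other direction in either comparison, though 6 and 5 had values on that side, and 9 and 11 of the 16 were at an unadjusted p under 0.05. The 3 largest among those 5 were ATP6V0A2 at -0.26 (adjusted p 0.00934), ATP6V1E1 at -0.24 (adjusted p 0.0164) and ATP6V1G1 at -0.24 (adjusted p 0.0183).

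Of 27 other genes of mTORC1 regulation at the lysosome, BYL719 raised 3 and lowered 2 in knock-in cells, shares below the 15.1% and 13.2% of all tested genes. They included TSC1, a subunit of the complex that inhibits Rheb, at 0.69 (SE 0.103, adjusted p 0.000388), and SLC38A9, the lysosomal arginine sensor, at 0.47 (SE 0.0642, adjusted p 0.000197). SLC38A9 was also lower in knock-in DMSO, by a log2 difference of -0.36 (adjusted p 0.000924), and had a called interaction of 0.45 (adjusted p 0.0211). In a list of 24 genes known to respond to PI3K inhibition, 17 rose and 4 fell in knock-in cells, beside 15.1% and 13.2% of all tested genes. In parental cells 10 rose and 3 fell, beside 0.831% and 0.589%. PDK4, a FOXO target, rose by 3.48 in knock-in (SE 0.123, adjusted p 7.14e-09) and 1.59 in parental cells (SE 0.115, adjusted p 4.73e-05), and PIK3IP1, an inhibitor of PI3K, by 3.09 in knock-in cells (SE 0.148, adjusted p 5.59e-08). The log2 responses of ULK1, GABARAPL1 and MITF were thus smaller than those of the leading genes of that list in the same libraries.

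The other core autophagy genes also held the widest gap between the lines. MAP1LC3A, a paralogue of MAP1LC3B, was at 1.16 CPM in parental DMSO and 0.0573 CPM in knock-in DMSO, a log2 difference of -4.28 (SE 0.454, adjusted p 1.48e-05), and at 1.04 and 0.0394 CPM under BYL719, a difference of -4.68 (SE 0.483, adjusted p 1.39e-05). The knock-in levels of MAP1LC3A lie near the floor of detection, so the size of these differences is uncertain. BNIP3, a mitophagy receptor, was at 73.1 and 120.0 CPM in DMSO, 0.75 higher in knock-in cells (SE 0.0681, adjusted p 4.06e-06).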

How the data were processed

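RNA of 12 MCF10A libraries was extracted with RNeasy and sequenced as paired-end reads of 150 nt, per the labels' protocols. Per the submitters' processing notes, the tools were Trim Galore 0.6.1, cutadapt, Salmon 1.2.1 and DESeq2 1.28.1, on GRCh38; the sources used here do not give strandedness. The authors deposited, per transcript, estimated counts (expected counts from Salmon, not whole numbers), TPM and effective length in nucleotides.

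Estimated counts of 207749 transcripts were summed by gene symbol and rounded. CPM was computed from library totals, and TPM was summed per symbol. The test was edgeR 4.0.16 (quasi-likelihood, TMM scaling, filterByExpr, 4 group means, 8 residual degrees of freedom, two-sided, Benjamini-Hochberg over 21055 symbols), in R 4.3.3 with limma 3.58.1, tested on simulated data beforehand. The 5 comparisons were BYL719 in each line, knock-in against parental under each treatment, and the interaction. The alternatives were DESeq2 1.42.0, other scalings, no count filter, effective-length offsets, fits of only the groups compared, a replicate block, gene identifiers and each library left out in turn.

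The 44 genes and the other lists were chosen with earlier results of these data known. Named with values in each library were at most 8 higher and 8 lower called genes per comparison, by size of change, and TFEB, TFE3 and MITF; other genes with values in each library, such as MCOLN1, were added after their values were seen. Genes of the other lists were named where among the 3 called with the largest change in a comparison. Between libraries of a group, chi-square divided by its degrees of freedom ran from 4.59 to 168, so none was a copy. Genes that overlap another gene or have a near-identical copy are uncertain. Promoter sequences are from RefSeq (GRCh38.p14). The 12 mouse fibroblast libraries were not used.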

Additional observations from a re-analysis of the deposited data

Results flagged for a closer look

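For 4 of the 44 genes the response to BYL719 differed between the lines in the test of the difference itself, edgeR's interaction with Benjamini-Hochberg adjustment over all tested genes. The log2 change in knock-in cells exceeded that in parental cells by 0.76 for ULK1 (SE 0.0844, adjusted p 0.000563), by 0.75 for MITF (SE 0.105, adjusted p 0.00268), by 0.72 for GABARAPL1 (SE 0.0879, adjusted p 0.00116) and by 0.41 for WIPI1 (SE 0.073, adjusted p 0.0112). ULK1, MITF and GABARAPL1 were also lower in knock-in than in parental cells in DMSO, by log2 differences of -0.92, -1.15 and -0.50, and those comparisons share the DMSO libraries with the interaction. WIPI1 differed by -0.09 in DMSO (SE 0.0518, adjusted p 0.195). All 3 knock-in BYL719 libraries lay above all 3 knock-in DMSO libraries for each of the 4 genes, as for 20.6% of all tested genes. The 4 were picked by their interaction in these same libraries, so this adds no support. The cause of the differences was not tested.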

How the results depend on the processing

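Of 43 called results for the named genes, 33 kept their call and direction in every one of 20 other settings (19 for the interaction), 9 lost the call in at least 1, and 1 reversed: TECPR1, knock-in against parental in DMSO, became -0.06 with effective-length offsets. TFEB, never called with all libraries, changed sign with these offsets, to 0.07 and -0.05 for BYL719 in knock-in and parental cells, 0.01 between lines under BYL719 and 0.12 for the interaction, and its knock-in response ran from -0.08 to 0.02 over the fits that left out 1 library, the upper end without knock-in DMSO R2. Calls of ATG2B were lost when only the groups compared were fitted, with adjusted p up to 0.0913, and its knock-in response also without the low-count filter (adjusted p 0.0607). Counts that moved by over 1.5 times were as follows. BYL719 in parental cells gave 5 higher with DESeq2, 1 with effective-length offsets and 8 higher and 2 lower in a fit of only the groups compared. That fit gave 9 higher and 0 lower for BYL719 in knock-in cells, where DESeq2 gave 2 lower. Between lines under BYL719 the same fit gave 22 higher and 5 lower, where DESeq2 and library totals each gave 5 lower. Calls over all tested genes moved as well. For BYL719 in parental cells, the main fit called 175 higher and 124 lower, and DESeq2 424 and 469. Effective-length offsets gave 83 and 52 there, and the fit of only the groups compared 1673 and 1813. Between lines under BYL719 the latter called 3635 and 3113. The cause of these shifts was not tested.

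Leaving out each library in turn, the counts ran from 12 to 17 higher and 10 to 14 lower between lines in DMSO, 11 to 24 and 3 to 7 under BYL719, 15 to 23 and 0 to 3 for BYL719 in knock-in cells, 0 to 8 and 0 to 0 in parental cells, and 4 to 11 and 0 to 1 for the interaction. The upper ends came without knock-in DMSO R2. In parental cells no gene was called without DMSO R2 or BYL719 R3, and 1 without any other parental library. With the replicate block the calls were 13 higher and 10 lower, 13 and 3, 16 and 1, 2 and 0, and 4 and 0 in the same order. Same-numbered libraries deviated together weakly at most, with r from 0.002 to 0.067 over 12 pairs, below the limit of 0.1 set for pairing. Between differently numbered libraries r ran from -0.077 to 0.048. The main fit used no pairing, and a weak one cannot be told from these values. With 3 libraries a group, differences near the spread of 1 library, as for TFE3, were not separable at this size.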
